A study of Mus musculus with 8 samples.

Results

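Interferon-stimulated genes were examined in 8 mouse tumours as a list of 42 genes chosen by name, of which 38 had a probe set annotated to that gene alone and were read from the one with the highest mean. These 38 are set among 22180 genes read in the same way. Oas1a, Dtx3l and Gbp2 have only a probe set shared with another gene (Oas1g, Parp9 and Gbp2b), no probe set is annotated to Ifi44 in the table used here, and none of the 4 was given a value. The list holds 34 classical type I targets (31 measured), 7 genes more strongly driven by interferon gamma (6 measured), namely Irf1, the guanylate binding proteins Gbp2, Gbp3 and Gbp7 and the p47 GTPases Igtp, Irgm1 and Iigp1, and the myeloid factor Irf8, which was placed in neither class.

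The tumours grew from neural crest cells, the embryonic cells that give rise to sympathetic neurons, glia and pigment cells. The cells carried introduced N-Myc, the transcription factor amplified in high-risk neuroblastoma, and were p53+/- and p53-/- cells mixed together. About 10000 cells were placed under the skin of nude or C57Bl/6 mice 48 hours after infection, and the tumours were removed after about 50 days. The labels give all 8 tumours as 1 group (n = 8) with no control tissue, and do not say which host each tumour grew in. Nude mice lack a thymus and so most T cells, whereas C57Bl/6 mice have them. The sources used here do not name the promoter that drives N-Myc, and nothing states that each tumour came from its own culture or animal, so p-values cover only the spread between these samples, which may be technical. Total RNA of each tumour was measured on 1 Affymetrix array, and all values are log2 levels normalized by the authors. Array medians lay between 5.63 and 5.75. All 6 measured neuroblastoma markers (Th, Dbh, Isl1, Hand2, Gata3 and Mycn) were above the array background, with means of 6.65 to 11.32. Tumour 6 stood apart in these markers, with 5.72 for Dbh, 6.93 for Gata3 and 8.59 for Th, against at least 9.87, 9.01 and 9.17 in the others.

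Type I interferons signal through the Ifnar1 and Ifnar2 receptor chains to a complex that includes Stat2 and Irf9 and binds a DNA element called the ISRE, which switches on antiviral genes. Interferon gamma, made mainly by T and NK cells, signals through Ifngr1 and Ifngr2 to the GAS element, and acts directly and through Irf1 on guanylate binding proteins and p47 GTPases. Many genes answer to both. In tumours such transcripts can come from the cancer cells or from macrophages, endothelium and other host cells. In bulk tissue, fewer cells of a type and less RNA per cell cannot be told apart.

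The sequence just before the transcription start was read for both elements, because these elements carry the signals of the 2 kinds of interferon. RefSeq promoter windows (GRCm38.p6) matched 31 of the 42 genes, with 40 windows, and the 250 bases before each start were searched on both strands for the core of the ISRE (GAAA, any 2 bases, GAAA) and for the GAS (TTC, any 3 bases, GAA), which reads the same on both strands. The motifs and the genes shown were chosen after values or matches had been seen. The following stretches, 5' to 3' on the strand of the gene, show classical type I genes first and then genes driven by interferon gamma, with every match in capitals.
Ifit1, chr19:34640770-34640828, plus strand: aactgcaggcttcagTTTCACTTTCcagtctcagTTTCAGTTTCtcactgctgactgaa
Isg15, chr4:156200860-156200911, minus strand: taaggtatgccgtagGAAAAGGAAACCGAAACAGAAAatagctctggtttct
Rsad2, chr12:26456548-26456587, minus strand: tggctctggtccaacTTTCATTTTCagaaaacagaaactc
Bst2, chr8:71537572-71537623, minus strand: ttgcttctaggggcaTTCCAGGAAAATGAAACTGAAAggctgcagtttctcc
Gbp7, chr3:142530215-142530307, plus strand: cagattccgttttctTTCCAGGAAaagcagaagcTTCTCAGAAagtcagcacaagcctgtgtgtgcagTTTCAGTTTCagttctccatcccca
Igtp, chr11:58199496-58199546, plus strand: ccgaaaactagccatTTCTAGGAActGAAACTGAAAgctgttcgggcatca
Irgm1, chr11:48871421-48871465, minus strand: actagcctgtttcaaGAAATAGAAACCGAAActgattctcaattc
Irf1, chr11:53769909-53769947, plus strand: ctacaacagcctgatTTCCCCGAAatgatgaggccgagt
In Isg15, Bst2 and Irgm1 the matches overlap, and in Bst2 a GAS match runs into an ISRE match. The ISRE core was in 13 of 40 windows of these genes (32.5%), against 2.98% of all 32851 windows. The GAS was in 9 of 40 (22.5%), against 7.02% of all windows. By class, 8 of 24 classical type I genes and 5 of 6 interferon-gamma driven genes had an ISRE match, and 5 of 24 and 3 of 6 had a GAS match. Over all genes with a window, 3.46% had an ISRE match and 8.13% a GAS match. Irf1 had the GAS alone, whereas Gbp7 and Igtp had both elements. Oasl2, Xaf1, Irf7, Ddx58 and Trim25, whose levels are described below, had neither sequence in this stretch. A match describes the letters and is not a measured binding site.

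Classical type I genes were split between genes above background and genes near or below it, and the interferon-gamma driven genes other than Irf1 did not pass the test. Background was set on each array from 1435 probe sets of receptors for odours, pheromones and bitter taste, genes with no known use in this tissue, at their 95th percentile, and it lay between 5.45 and 5.66. With limma's moderated test over all genes (adjusted p under 0.05, Benjamini-Hochberg), 22 of the 38 genes (57.9%) were above background, against 57.3% of all genes tested, so the list as a whole was detected at the rate of the array. The count was 20 of 31 for classical type I genes and 1 of 6 for interferon-gamma driven genes, and Irf8 was also above background. Of the 38 genes, 17 had an SD over the tumours above 0.41, the 99th percentile of the receptor genes (11.4% of all genes did), namely 13 of 31 classical type I and 4 of 6 interferon-gamma driven genes. The median SD was 0.29 for the type I class and 0.46 for the interferon-gamma class, against 0.20 for all genes. There is no technical replicate of a tumour, so these SDs hold measurement error as well.

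**Figure D1:**
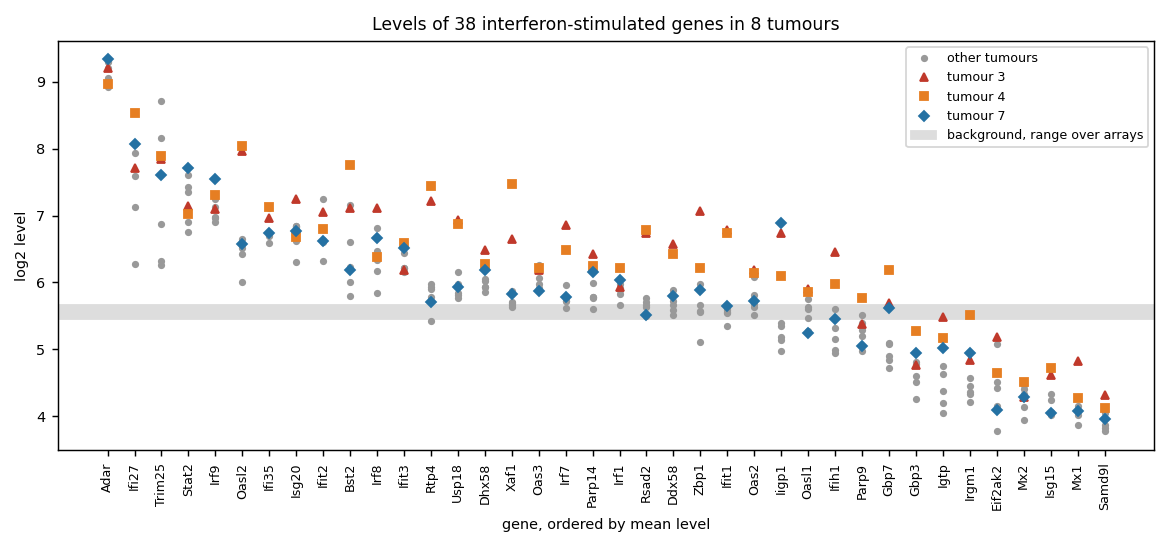
Log2 level (vertical axis) of the 38 measured interferon-stimulated genes in each of the 8 tumours, ordered by mean level. The grey band is the range of the array background, 5.45 to 5.66. Levels of different genes come from different probe sets and are not to be ranked against each other. In genes such as Oasl2, Rtp4, Ifit1 and Rsad2, tumours 3 and 4 stand above the other 6.

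Among the antiviral effectors, 11 of 19 measured genes (57.9%) were above background, about the 57.3% of all genes. Tumours 3 and 4 had 7.97 and 8.04 of Oasl2, an oligoadenylate synthetase-like protein, against 6.01 to 6.64 in the other 6 (mean 6.84 ± 0.74, SD, n = 8, limma adjusted p = 0.000494). The lower of tumours 3 and 4 was thus 2.51-fold over the next tumour. Rtp4, a receptor transporter protein, showed the same 2 tumours apart, at 7.22 and 7.44 against 5.42 to 5.98 elsewhere (2.37-fold over the next). Xaf1, which binds the apoptosis inhibitor XIAP, had 6.65 and 7.48 there and at most 5.87 elsewhere. The calls of Rtp4 and Xaf1 were lost when single tumours were left out.

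Bst2, or tetherin, which holds budding virus particles at the cell surface, did not split in this way. Tumour 4 had 7.75, tumour 6 had 7.16 and tumour 3 had 7.11, with a median of 6.41 and a lowest level of 5.79 in tumour 8. Ifi27 was also highest in tumour 4 (8.53), but tumours 8, 7 and 2 followed at 8.07, 8.06 and 7.93, and its lowest was 6.27 in tumour 5. Adar, the RNA-editing deaminase, which has both a constitutive and an interferon-inducible promoter, was above background on all 8 arrays (9.16 ± 0.16, limma adjusted p = 1.36e-13). It varied less than the median gene and was lower in tumours 6 and 4 (8.93 and 8.96) than in any other.

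The 3 Ifit genes, which bind viral RNA and lie side by side on chromosome 19, differed in pattern. Ifit1 was at 6.79 and 6.74 in tumours 3 and 4 and between 5.35 and 5.65 in the other 6, and its mean did not pass the test against background (5.86 ± 0.57, limma adjusted p = 0.182). Ifit2 was above background on all 8 arrays (6.76 ± 0.29) and highest in tumour 2 (7.25), followed by tumour 3 (7.05). Ifit3 (6.36 ± 0.19) ranged only from 6.15 to 6.59, with tumours 4, 6 and 7 at the top.

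Rsad2, or viperin, which makes a nucleotide that ends viral RNA chains, resembled Ifit1. It was at 6.73 and 6.79 in tumours 3 and 4 and at 5.50 to 5.76 in the others (5.91 ± 0.53, limma adjusted p = 0.0911). Isg20, a ribonuclease (6.76 ± 0.27, highest in tumour 3 at 7.25), Oas2 (5.85 ± 0.26) and Oas3 (6.05 ± 0.16), enzymes of the RNase L pathway, were above background with small spreads, though Oas2 lost its call without tumour 3 or tumour 6. Oas2 was at 6.19 and 6.15 in tumours 3 and 4, with tumour 6 next at 6.08. Oas3 was highest in tumour 5 (6.26).

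The other effectors had means below or at background. Isg15, a ubiquitin-like protein, was below background on all 8 arrays (4.26 ± 0.28), yet its levels in tumours 4 and 3 (4.72 and 4.62) were its highest. Mx1 (3.87 to 4.83), Mx2 (4.30 ± 0.19), Samd9l (4.01 ± 0.18) and Eif2ak2 (4.48 ± 0.48), the kinase PKR, were also below background on every array. Eif2ak2 was highest in tumours 3 and 6 (5.18 and 5.08). Oasl1, a relative of Oasl2, was at 5.59 ± 0.25 and within the background. A level below this background is not a zero, since probe sets differ in the light they give without a target.

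**Figure D2:**
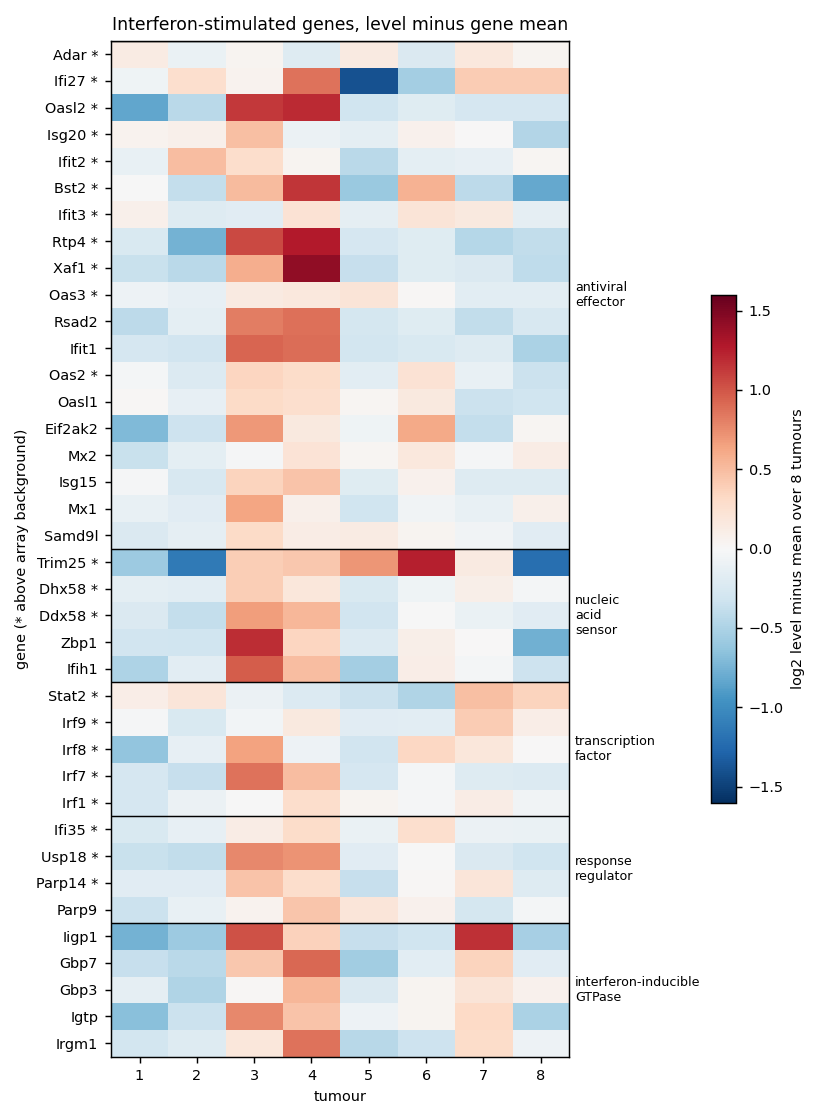
Log2 level minus the gene's mean over the 8 tumours (colour) for the 38 measured genes (rows, by role and mean level) in each tumour (columns), where an asterisk marks genes above the array background. Tumours 3 and 4 are red in most rows, tumour 7 is red in the GTPases, and Adar and Stat2 depart from this pattern. Trim25 is red in tumours 3 and 4 but more so in tumours 6 and 5.

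The sensors of viral RNA and DNA were above background in 3 of 5 cases (60%), near the 57.3% of all genes. Ddx58 (RIG-I), which detects RNA ends without a cap, was at 6.57 and 6.42 in tumours 3 and 4 and at 5.51 to 5.89 in the others, and lost its call when single tumours were left out. Dhx58, a regulator of RIG-I and its relative Ifih1, was at 6.48 and 6.28 in these tumours and at most 6.19 elsewhere. Ifih1 (MDA5), which detects long double-stranded RNA, was at 6.45 and 5.98 against 4.95 to 5.60, and its mean did not pass the test (5.49 ± 0.52, limma adjusted p = 0.586). Zbp1, which detects Z-form nucleic acids, had 7.06 and 6.22 there, with a median of 5.77 (limma adjusted p = 0.172).

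Trim25, a ubiquitin ligase that acts on RIG-I, had the largest SD of the 38 genes (7.46 ± 0.89). Its order was different. It was highest in tumour 6 (8.71) and tumour 5 (8.17), at 7.89 and 7.85 in tumours 4 and 3, and lowest in tumours 8 and 2 (6.25 and 6.33), a 5.48-fold range. Tumours 3 and 4 were thus above its mean but below tumours 6 and 5.

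All 5 transcription factors were above background, against 57.3% of all genes. Irf7, which amplifies type I interferon, had 6.86 and 6.48 in tumours 3 and 4 and 5.62 to 5.96 elsewhere (limma adjusted p = 0.0218). Stat2 and Irf9, members of the ISRE-binding complex, did not share this order. Both were highest in tumour 7, Stat2 at 7.72 and Irf9 at 7.55, and Stat2 was at 7.15 and 7.02 in tumours 3 and 4, below its mean of 7.24. Irf1 (5.93 ± 0.16, limma adjusted p = 0.000357) ranged from 5.66 in tumour 1 to 6.21 in tumour 4. Irf8, a factor of macrophages and dendritic cells (6.47 ± 0.39), was highest in tumours 3 and 6 (7.11 and 6.81), with 6.39 in tumour 4.

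Regulators of the response were above background in 3 of 4 cases, against 57.3% of all genes. Usp18, which strips Isg15 from proteins and damps receptor signalling, was at 6.93 and 6.88 in tumours 3 and 4 and at 5.77 to 6.16 in the other 6 (limma adjusted p = 0.00386). Parp14, a mono-ADP-ribosyltransferase, was at 6.42 and 6.25 in these tumours, with tumour 7 next at 6.16. Ifi35 (6.84 ± 0.20) was highest in tumours 4 and 6 (7.13 and 7.11). Parp9, the partner of Dtx3l, was at 5.32 ± 0.26, below background, and highest in tumour 4 (5.77).

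Some of these calls were lost when single tumours were left out. With all 8 tumours, limma's adjusted p was 0.0478 for Xaf1, 0.0410 for Ddx58, 0.0368 for Rtp4, 0.0218 for Irf7 and 0.0194 for Oas2. Without tumour 3, the adjusted p of limma's test passed 0.05 for Oas2 (0.0511), Xaf1 (0.115), Rtp4 (0.0807) and Ddx58 (0.0903). Without tumour 4 it did so for Xaf1 (0.0608), Rtp4 (0.0812), Ddx58 (0.103) and Irf7 (0.0577). Without tumour 6 the values were 0.0505 for Oas2, 0.0706 for Xaf1, 0.0597 for Rtp4 and 0.0714 for Ddx58, and without tumour 7 they were 0.0631 for Xaf1 and 0.0594 for Ddx58. The number of genes above background was 18 to 22 over these repeats.

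The interferon-inducible GTPases were not above background as means, but differed between tumours. Iigp1, a p47 GTPase that attacks parasite vacuoles in mouse cells, had 6.89, 6.74 and 6.09 in tumours 7, 3 and 4, against 4.97 to 5.40 in the other 5 (5.72 ± 0.75, limma adjusted p = 0.615). Gbp7 had 6.19, 5.70 and 5.62 in tumours 4, 3 and 7, against 4.72 to 5.10 in the others. Igtp was at 5.48, 5.17 and 5.02 in tumours 3, 4 and 7 and at most 4.75 elsewhere. Irgm1 was highest in tumours 4 and 7 (5.52 and 4.95), as was Gbp3 (5.28 and 4.95). Irgm1 and Gbp3 were below background on all 8 arrays, and Igtp was above it on 1.

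Set side by side over all measured genes, both classes were high in tumours 3 and 4, and they differed in tumour 7. Each measured gene was centred on its mean and the genes of a class were averaged, also those below background, since only Irf1 of the second class was above it. Over genes above background alone, the 20 type I genes averaged -0.17, 0.40, 0.46 and -0.02 in tumours 1, 3, 4 and 7, and Irf1 was at -0.27, -0.00066, 0.28 and 0.11. Irf1 was thus not high in tumour 3. Gbp3 was not either, at 4.76 against its mean of 4.75. Of the interferon-gamma class, Iigp1 (6.74 against 5.72) and Igtp (5.48 against 4.71) were farthest above their means there. In tumour 3 the average was 0.46 for classical type I genes and 0.40 for interferon-gamma driven genes, and in tumour 4 it was 0.44 and 0.57. In tumour 7 it was -0.08 and 0.41, a difference of -0.49 (-0.33 without Iigp1). In the remaining tumours the 2 classes differed by -0.0016 (tumour 8) to 0.20 (tumour 1). Tumour 7 was among the 3 highest for 8 of 31 type I genes and for 6 of 6 interferon-gamma driven genes, against 32.1% of all genes. It was 5 of 6 with the arrays centred on their medians. These counts were chosen after the values were seen, each tumour is 1 array, and the difference between the classes was not tested.

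**Figure D3:**
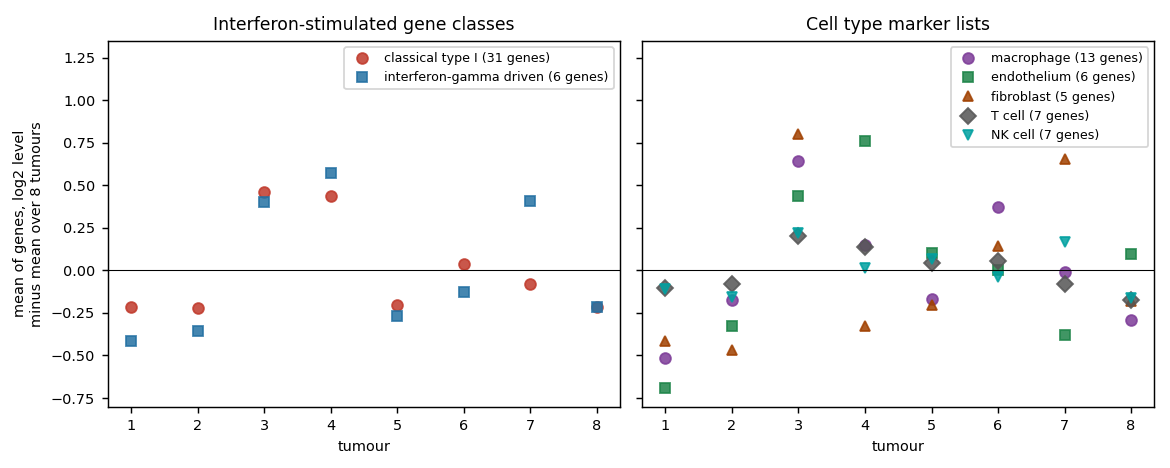
Mean over the genes of a list of the log2 level minus each gene's mean over the 8 tumours, for the gene classes (left) and for markers of other cell types (right), with 1 point per list and tumour. Both classes are high in tumours 3 and 4, the interferon-gamma driven genes also in tumour 7 (0.41 against -0.08 for type I genes on the same scale).

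Tumours 3 and 4 recur in the single genes. They held the 2 highest levels for 18 of 38 genes, 16 of 31 classical type I and 2 of 6 interferon-gamma driven, against 2.9% of all genes. Of the 17 genes with an SD above the limit it was 11, against 3.99% of all such genes. Of the 22 genes above background, 16 were highest in tumour 3 or 4, as were 27.1% of all genes above background. Over all measured genes it was 31 of 38, against 28.6% of all genes and 33% of all genes over the SD limit. None of the 38 had its lowest level in either tumour, a count for which the share of all genes was not computed. Without tumours 3 and 4, the genes over the SD limit of the remaining 6 arrays numbered 5, namely Bst2, Eif2ak2, Ifi27, Trim25 and Iigp1. Without tumour 4 alone they numbered 11, and 2 of 6 in the interferon-gamma class. That these tumours are high in interferon response genes was known before this list was drawn up, so the counts describe the list and are no independent evidence.

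**Figure D4:**
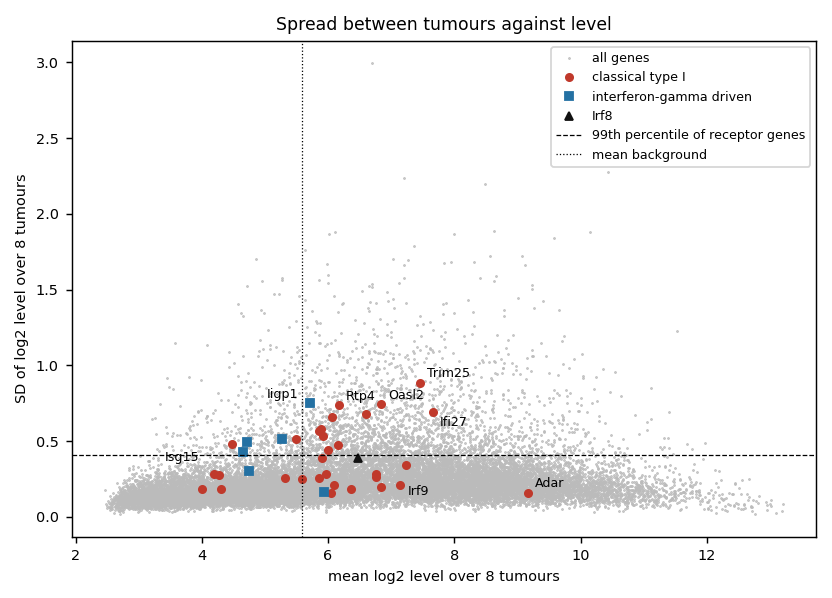
SD over the 8 tumours (vertical axis, log2) against mean log2 level (horizontal axis) for all 22180 genes in grey and the 38 interferon-stimulated genes in colour by class. The dashed line is the SD limit of 0.41, which 17 of the 38 exceed, and the dotted line is the mean array background. Trim25 lies highest of the 38, at 0.89, and Adar farthest to the right, at 0.16.

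Markers of some other cell types were also high in tumour 3, in tumour 4 or in both. Macrophage markers were above background in 12 of 13 cases, all but Cd14, against 57.3% of all genes. Their highest level was in tumour 3 or 4 for 12 of 13, against 28.6% of all genes, and in these 12 it was tumour 3. Tumours 3 and 4 held the 2 highest levels for 1 of 13 macrophage markers, against 2.9% of all genes. Tumours 3, 6 and 4 had centred averages of 0.64, 0.37 and 0.15. The summed level, the sum of the markers' log2 levels in a tumour, ran from 94.6 to 109.6. Such a sum depends on the number of markers and is not to be compared between lists or read as a fold change. Endothelial markers were above background in 5 of 6 cases, all but Tek, and averaged 0.76 in tumour 4 and 0.44 in tumour 3, with 5 of 6 having their 2 highest levels there and a summed level of 39.8 to 48.5. Fibroblast markers (4 of 5 above background, summed level 33.7 to 40.0) averaged 0.80 in tumour 3 and 0.66 in tumour 7, but -0.33 in tumour 4. The part of these cells in the levels above was not tested.

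Lymphocyte markers were mostly below background. Over all genes 57.3% were above it, the share to set beside each count given here. Cd4 alone of 7 T cell markers was above it (summed level 33.6 to 36.2), while Cd3e, Cd3d, Cd3g and Cd8a were below it on all 8 arrays. Of 7 NK cell markers 2 were above background (summed level 33.5 to 36.2), and Ncr1, Prf1 and Gzma had their highest levels in tumour 7 (5.29, 7.23 and 4.19), Ncr1 and Gzma there still below background. Klrd1 and Nkg7 had their second highest levels in tumour 7, Gzmb was at 4.65 there and highest in tumour 3 (5.30), and Klrb1c had its lowest level there (3.89). Siglech and Ccr9, markers of the plasmacytoid dendritic cells that make type I interferon, were below background on all 8 arrays, and 2 of 5 markers of these cells, Ly6d and Pacsin1, were above it (summed level 25.2 to 27.5). Of 3 B cell and 5 neutrophil markers 0 were above background by limma (summed levels of 14.6 to 15.4 and of 21.5 to 24.7).

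The receptors and relays of the pathway were mostly above background. The SD limit was exceeded by 3 of the 23 measured (Ifnar2, Sting1 and Tlr3), beside 11.4% of all genes. Of 23 measured genes of 24 listed, 16 were above background, a share of 69.6% against 57.3% of all genes. Ifnar1 (8.86 ± 0.25), Ifnar2 (8.62 ± 0.49), Ifngr1 (8.38 ± 0.18) and Ifngr2 (9.71 ± 0.23), and the kinases Jak1 (9.45 ± 0.17), Jak2 (7.59 ± 0.23) and Tyk2 (7.06 ± 0.07), were above it on all 8 arrays. Ifnar2 had its highest levels in tumours 4 and 6 (both 9.27). The ligand genes Ifnb1 (3.50 ± 0.06), Ifna2 (3.30 ± 0.13) and Ifng (5.29 ± 0.12) were below background on every array. Ifna4 was at 7.58 ± 0.26 and highest in tumour 1 (8.08), but it belongs to a family of near-identical genes and its reading is uncertain.

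Among upstream sensors outside the list, Tlr3 and Sting1 were over the SD limit, and Cgas and Tlr7 were not. Tlr3, the endosomal receptor for double-stranded RNA, was at 7.30 in tumour 4 and at 5.35 to 5.90 in the other 7. Sting1, the adaptor for cytosolic DNA, was at 6.76 and 6.27 in tumours 3 and 4, and 4.93 in tumour 1. Neither mean passed limma's test (adjusted p of 0.297 for Tlr3 and 0.146 for Sting1). Cgas, the DNA sensor that signals to Sting1, was below background (3.26 ± 0.16). The negative regulators Socs1 and Socs3 were above background at 6.12 ± 0.26 and 6.24 ± 0.23.

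Of 8 genes downstream of interferon gamma, 4 (50%) were above background, Psmb8, Tap1, Ciita and B2m, against 57.3% of all genes. The chemokine gene Cxcl10 was at 7.39 and 6.97 in tumours 3 and 4 and at 5.12 to 6.11 elsewhere. Cxcl9, which is more dependent on interferon gamma, had 8.27, 7.30 and 7.02 in tumours 7, 3 and 6, with 5.73 in tumour 4. Nlrc5, which switches on class I genes, was also highest in tumour 7 (6.08). The means of Cxcl9 and Nlrc5 did not pass limma's test (adjusted p of 0.0549 and 0.683). Psmb8 and Psmb9 were at 6.04 and 5.31 in tumour 7, below their means of 6.19 and 5.46. Tumour 7 was among the 3 highest for 4 of the 8 genes, against 32.1% of all genes. B2m, the light chain of class I molecules, had 12.58, 12.50 and 12.46 in tumours 3, 6 and 4 and at most 11.89 elsewhere. Tap1, the peptide transporter, had 7.52 and 7.38 in tumours 3 and 4, with 7.21 in tumour 7.

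Single genes of the 2 classes were also related to each other and to other genes over the 8 tumours. The gene with the highest mean of each class above background was used, Adar and Irf1, and 9 of 11 planned relations could be computed. Adar did not follow its class. It was at 8.96 in tumour 4, below its mean of 9.16, where the centred type I average was 0.44. Its relations therefore describe Adar and not the type I class. Adar and Irf1 had a Pearson's r of -0.30 (exact permutation p = 0.476, adjusted p = 0.536) and a Spearman's rho of 0.07 (exact permutation p = 0.882, adjusted p = 0.882), and r was 0.25 without tumours 4 and 6, the farthest from Adar's median. The largest r was that of Irf1 with the endothelial gene Pecam1, at 0.71 (exact permutation p = 0.0541, adjusted p = 0.231), with a rho of 0.67 (exact permutation p = 0.0831, adjusted p = 0.289). It was 0.17 without tumours 1 and 4, the farthest from Irf1's median. Without tumour 1 alone it was 0.40, and without tumour 4 alone 0.70, so tumour 1 moved it most. None of the 9 passed after adjustment (two-sided exact permutation of 40320 pairings, lowest adjusted p of 0.231 for r and 0.289 for rho), and 1 had an unadjusted p under 0.05, Adar with Csf1r (rho of -0.74, p = 0.0458, r of -0.53, p = 0.182).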

How the data were processed

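Total RNA of 8 tumours, 1 group by the labels, was measured on 1 Affymetrix mouse array each. The deposited values are log2 levels per probe set, made by the authors; the submitters' processing notes name RMA and Partek 6.5, not their settings, and no build was found in the labels. Of 41345 probe sets, 23521 carry 1 gene symbol, 1814 several and 16010 none in the annotation used. Each gene was read from the probe set of its own with the highest mean.

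Level against background was tested over all genes with limma 3.58.1 in R 4.3.3 (trend, robust prior), as each array's level minus the 95th percentile of receptor probe sets, two-sided, with Benjamini-Hochberg adjustment and calls above 0. The test was also run on simulated data in which most genes were set at background, unlike on these arrays. That run gives no support to the calls of single genes. Spread, class averages and ranks are descriptions. Relations of single genes used exact permutation in Python 3.11.15 with scipy 1.17.1. Older names (Tmem173, Mb21d1) were matched through a GRCm38.p6 gene table.

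Genes, lists and classes were chosen with earlier results of these data known. Named by rule were, per role, the 4 genes above background with the largest SD and the 2 with the highest mean, plus the pathway and marker lists; other values were chosen after they were seen. Alternatives changed the probe sets, the scaling, the background, the SD limit, the class of Irf8 and the tumours included. The number of arrays limits the precision. 2 planned relations are not reported here.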

Additional observations from a re-analysis of the deposited data

Results flagged for a closer look

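Mx1, an antiviral GTPase, was at 4.83 in tumour 3, against 3.87 to 4.28 in the other 7. The gap to the next tumour was 0.578 of the whole range, over the limit used for 8 samples. All of these levels lie below the array background. Of 40 sets of values looked at (38 genes and 2 class averages), this was the 1 in which a single tumour stood apart, and chance gives about 1 in 20. Tumours 3 and 4 together are not caught by such a measure, since each is close to the other.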

How the results depend on the processing

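No paired analysis was possible because the labels give 1 group. The count of genes above background (22 of 38) moved to 38 with background set at the receptors' median and not their 95th percentile, that of the type I class to 31 of 31 and that of the interferon-gamma class to 6 of 6. In the interferon-gamma class it was 2 against the 90th percentile and 2 with Irf8 counted in it. Without tumours 3 and 4 together, genes over the SD limit fell to 5, with 4 of 31 type I and 1 of 6 interferon-gamma driven. Leaving out each tumour gave 18 to 22 genes above background (16 to 20 type I, 1 to 1 interferon-gamma driven) and 11 to 19 over the SD limit (9 to 14 type I, 2 to 4 interferon-gamma driven). Genes highest in tumour 3 or 4 numbered 31 of 38 when those below background were counted too. The average of the interferon-gamma class rested on Irf1 alone when limited to genes above background. Over all 6 measured genes it moved to -0.36 in tumour 2, 0.40 in tumour 3, 0.57 in tumour 4, -0.27 in tumour 5, 0.41 in tumour 7 and -0.21 in tumour 8. The weak relations changed sign for Irf1 with Mycn with the arrays centred (r = 0.0141) and for Adar with Irf1 without tumours 3 and 4 (r = 0.0880). With each tumour left out, r ran from -0.497 to 0.0920 for Adar with Irf1, from -0.251 to 0.0320 for Irf1 with Mycn and from -0.0694 to 0.523 for Irf1 with Csf1r. Other counts stayed within 1.5 times under the alternatives run. Calls of single genes were lost 18 times, each on leaving out tumours, and gained 23 times, each with a lower background. The cause of these changes was not tested.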

Other observations

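Outside the list, the genes over the SD limit and above background (1841 candidates) whose centred levels lay closest to the type I average over the genes above background were Mr1, Unc93b1, Mxra8, Pla2g7, Tgfbr3, Runx1, S100a1, Fli1, Tpcn1 and Pdlim4, with root mean square differences of 0.20 to 0.26. Mr1, which presents small metabolites to T cells, had 6.67 and 6.18 in tumours 4 and 3, against 5.39 to 6.03 in the others. Unc93b1, which carries nucleic acid sensing Toll-like receptors to endosomes, was at 8.21 and 8.02 in tumours 3 and 4 and lowest in tumour 1 (6.96). Runx1 and Fli1, transcription factors of blood and vessel cells, were at 7.42 and 7.77 in tumour 3, at 7.48 and 8.05 in tumour 4, and Runx1 was highest in tumour 6 (7.66). Mr1 was also the closest to the average of the 6 interferon-gamma driven genes (0.17).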
